A study of Macaca mulatta with 16 samples.

Results

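The 40 genes described here encode the enzymes of glycolysis and of glycogen synthesis and breakdown, with their isozymes and a few regulators. They were chosen by name, and every probe set whose platform annotation carried one of the 40 symbols was taken. On the human array type U133A, 63 probe sets covered all 40 genes. On U133B, 21 probe sets covered 16 genes. Together these are 84 of the 44928 probe sets in the tables, and 40 of the 19044 gene symbols that the annotation gives. Each array type held 3 control probe sets of GAPDH among them, which entered no test, so that 60 probe sets of 40 genes on U133A and 18 probe sets of 15 genes on U133B could be tested.

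The study profiled the muscles that move the eye in adult rhesus monkeys (Macaca mulatta). Its 4 groups were the orbital layer and the global layer of extraocular muscle, whole lateral rectus and whole medial rectus. Each group had 2 arrays on U133A and 2 on U133B, or 16 arrays in all, and this number limits the precision of every value. The layers were microdissected, with a laser where the labels say how, and their RNA passed through a T7 amplification before the standard Affymetrix protocol. Whole muscle RNA went through the standard protocol alone. No treatment, genotype or exact age is given for any group, and probes designed for human transcripts were hybridised with monkey RNA in all of them. The labels do not tie arrays to animals, so that a p-value reflects only how far these samples spread, which may be technical. A p-value from the layer comparison may be too small where arrays of the same layer share an animal. It may be too large where an orbital and a global array share an animal, because no pairing was assumed.

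Glycolysis splits glucose into pyruvate and yields ATP without oxygen, and lactate dehydrogenase turns the pyruvate into lactate. Glycogen is the glucose store of the muscle fibre: synthase and branching enzyme build it on glycogenin, and phosphorylase, switched on by phosphorylase kinase, frees glucose phosphate for glycolysis when the fibre contracts. Fast glycolytic fibres are known to carry more of these enzymes than slow oxidative fibres, and many steps have a muscle isozyme beside isozymes named after liver, brain or heart. The orbital layer of extraocular muscle lies toward the bony orbit and is known for small, richly vascularised, fatigue-resistant fibres. The global layer lies next to the eyeball and holds larger fibres of several types.

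Values are intensities in the units of the deposited tables, which the authors had scaled per array. Differences are on the log2 scale and were tested with limma over all probe sets of a table, and the brightest probe set on average stood for a gene. A difference "passed" where its Benjamini-Hochberg adjusted p was under 0.05. Intensities of different probe sets were not compared with each other, because probes bind with different strength.

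The layer labels hold a conflict that bears on the first comparison. U133A orbital layer replicate 1 has a title naming the orbital layer and a source name naming the global layer, and U133B global layer replicate 1 has a source name that does not say which layer it is. Titles were followed. MYH3, an embryonic myosin heavy chain typical of orbital fibres, stood at 85288 and 78359.9 units on the U133A arrays titled orbital, against 3086 and 11010.0 on those titled global, so that the array in question lay with the other orbital array. MYH3 is listed as an orbital marker from general knowledge, but its values were known when it was chosen. On U133B, SLC1A2 stood at 22491 and 10977 units on the arrays titled global, against 565 and 78.7 on those titled orbital. The U133B array in question thus lay with the other global array, on a gene also chosen with earlier results of these data known. Markers of skeletal muscle gave signal in every group on U133A. The summed intensity of the 10 listed muscle genes was 617370.0 to 684300.0 for the orbital layer and 679570.0 to 734980.0 for the global layer. It was 843040.0 to 959990.0 for the lateral rectus and 786030.0 to 823550.0 for the medial rectus. None of the 10 genes was at the floor on all U133A arrays.

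In the orbital layer most glycolytic and glycogen genes gave lower signal than in the global layer, but none of these differences passed. On U133A, 32 of the 40 genes were bright enough to be tested. In the orbital layer 21 were lower (65.6%; 54.0% of all probe sets) and 11 higher. None passed, against 0.409% of all probe sets tested, and 10 of the 32 had an unadjusted p under 0.05 in limma, against 9.49% of all probe sets. Both orbital arrays lay below both global arrays for 18 genes (56.2%; 23.4% of all probe sets), and above them for 5 genes (15.6%; 18.5% of all probe sets). The median log2 difference was −0.33 over the tested genes and −0.04 over all probe sets. Over all 40 genes, including those too dim to test, 24 were lower, 16 higher and the median was −0.19.

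On U133B too, more of the genes were lower than higher. Of 15 genes, 10 were tested, and 8 were lower (80.0%; 47.0% of all probe sets) and 2 higher in the orbital layer. None passed, against 0.021% of all probe sets. An unadjusted p under 0.05 was reached by 6 of the 10, against 7.76% of all probe sets. The orbital arrays lay below the global arrays without overlap for 5 of the 10 genes (17.8% of all probe sets) and above them for 1 (20.8%). The median log2 difference was −0.81, against 0.03 over all probe sets. In bulk samples, fewer fibres of a type and less RNA per fibre cannot be told apart, and this holds for every difference below.

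**Figure D1:**
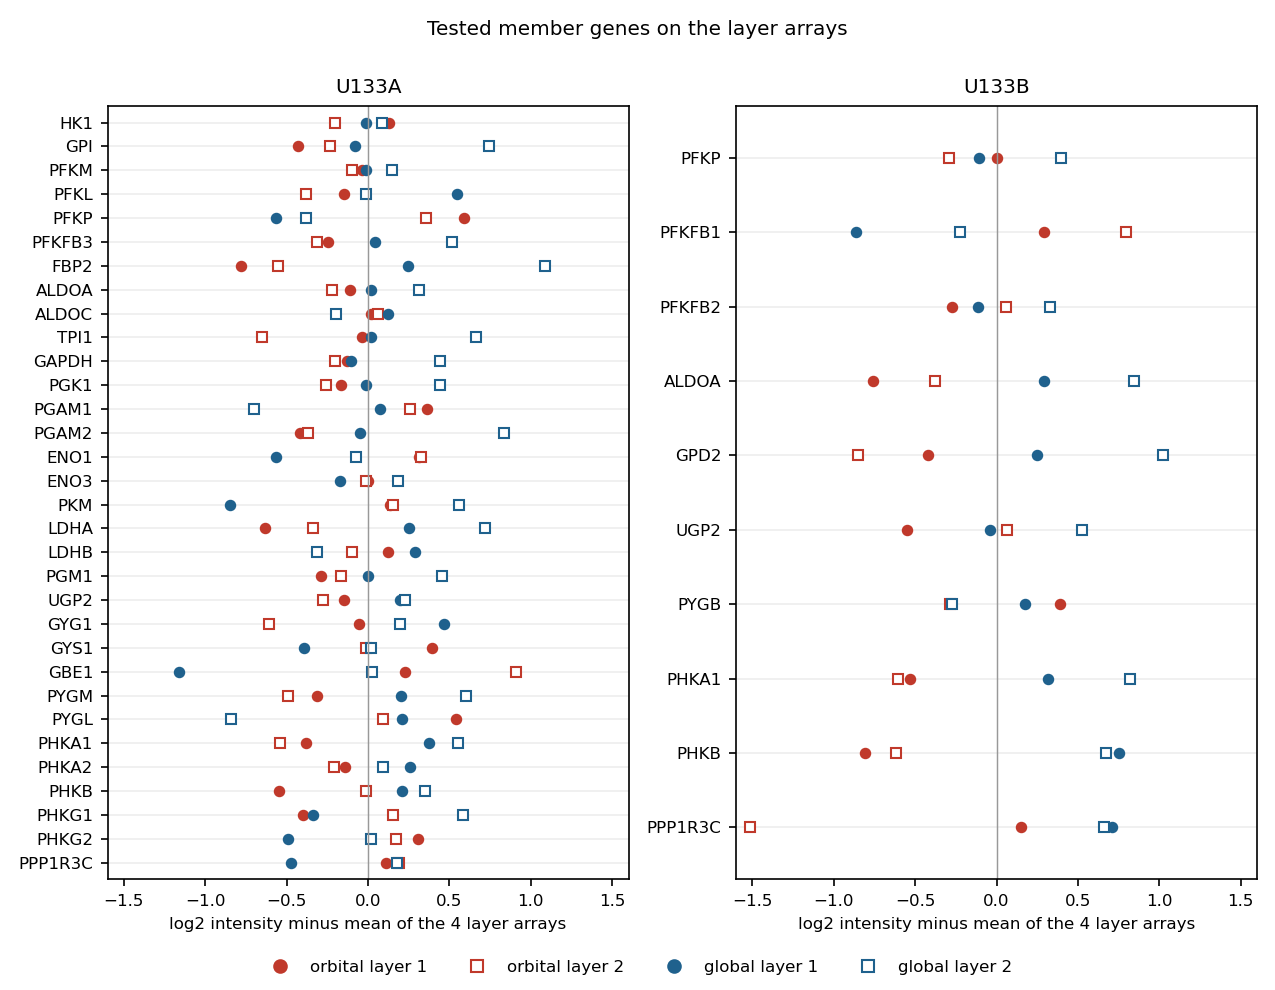
Log2 intensity of each tested gene on the 4 layer arrays of U133A (left, 32 genes) and U133B (right, 10 genes), with the mean of the 4 arrays taken as 0 and each array shown as 1 point (red orbital layer, blue global layer, filled circles for replicate 1 and open squares for replicate 2). Red points lie left of both blue points for 18 genes on U133A and 5 on U133B, with LDHA, FBP2, PYGM and PHKA1 among them, and right of them for 5 genes and 1 gene.

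The first steps of glycolysis gave no clear difference between the layers. HK1, the hexokinase that traps glucose in the cell, stood at 20332 and 16174 units in the orbital layer and at 18508 and 19792 in the global layer, which overlap (log2 difference −0.08 ± 0.22 SE). HK2, the insulin-regulated hexokinase of muscle, was too dim to test on either array type, at 602 and 124 units in the orbital layer and 600.2 and 564 in the global layer of U133A. GPI, which converts glucose phosphate to fructose phosphate, was at 18934 and 21621 in the orbital layer and at 24117 and 42644 in the global layer, a log2 difference of −0.66 ± 0.29. The GPI groups did not overlap, yet the gap between them was smaller than the spread of the 2 global arrays.

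At phosphofructokinase, the committed step, the subunits did not share a direction. The muscle subunit PFKM differed by less than its SE, at 71337 and 68261 units in the orbital layer and 72495 and 81062 in the global layer (log2 difference −0.14 ± 0.18). The platelet-type subunit PFKP was higher in the orbital layer on U133A, at 6502 and 5551 against 2925 and 3323 (0.95 ± 0.25, adjusted p = 0.283 in limma). Both orbital arrays of PFKP lay above every other U133A array, whole muscle included. The dimmer PFKP probe set of U133B did not repeat this, with 930.0 and 758 units against 863 and 1221 (−0.29 ± 0.51). PFKL, the liver-type subunit, was lower in the orbital layer on its brightest probe set, at 889 and 757 against 1436 and 975 (−0.53 ± 0.33).

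The regulators of this step included the tested gene of U133A with the difference farthest below 0. FBP2, the muscle fructose bisphosphatase that runs the step in reverse, was at 1759.7 and 2059.6 units in the orbital layer and at 3585 and 6421 in the global layer, 2.52-fold lower (log2 difference −1.33 ± 0.33, adjusted p = 0.238 in limma). This adjusted p was the smallest of the 32 genes, and it passed only without global layer replicate 1, at 0.0425 with a difference of −1.75. FBP1, the liver isozyme, was too dim to test between layers, at 435 to 576 units on the 4 arrays. The PFKFB genes encode bifunctional enzymes that make and destroy the sugar bisphosphate which stimulates phosphofructokinase. PFKFB3 was lower in the orbital layer, at 1517 and 1445 against 1847 and 2564 (−0.56 ± 0.28), whereas PFKFB1 on U133B was higher, at 1807 and 2559.6 against 812 and 1259.5 (1.09 ± 0.40, adjusted p = 0.605). PFKFB2 on U133B overlapped between layers (−0.21 ± 0.30), and PFKFB1 and PFKFB2 on U133A were too dim to test.

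Lower glycolysis showed lower orbital signal at the aldolase and triose steps. ALDOA, the muscle aldolase, was at 85218 and 79053 units in the orbital layer and at 93444 and 114224 in the global layer of U133A (log2 difference −0.33 ± 0.18). Its second U133A probe set differed by −0.44 ± 0.24, and on U133B the gene was at 5463 and 7101 against 11308 and 16615 (−1.14 ± 0.30, adjusted p = 0.409 in limma). All 3 tested ALDOA probe sets were lower without overlap. ALDOC, the brain aldolase, did not differ beyond its spread (0.08 ± 0.28). TPI1, which interconverts the triose phosphates, was at 9428 and 6146 against 9792 and 15323 (−0.69 ± 0.32), and its second tested probe set was lower as well (−1.07 ± 0.34).

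GAPDH and PGK1, the steps that first regain energy, followed less clearly. The 3 tested GAPDH probe sets differed by −0.35 to −0.33, and the brightest was at 87489 and 82938 units on the orbital arrays, against 88762 and 129902 for the global layer. PGK1 was lower without overlap on its brightest probe set, at 32475 and 30398 against 36090.5 and 49412 (−0.43 ± 0.22). Its other 3 tested probe sets ranged from −0.72 to 0.13, so that they did not share a sign.

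The mutase isozymes pointed in opposite directions, and the enolases gave no clear difference. PGAM2, the muscle mutase, was at 4137 and 4293 units in the orbital layer and at 5355 and 9865 in the global layer (log2 difference −0.79 ± 0.32). PGAM1, the brain-type mutase, went the other way, at 10671 and 9927 against 8720.0 and 5102 (0.63 ± 0.30). ENO3, the muscle enolase, overlapped between layers, at 101956 and 101083 against 90267 and 116011 (−0.01 ± 0.19). ENO1, the widely expressed enolase, was higher in the orbital layer on its brightest probe set, at 10870.0 and 10958 against 5914 and 8329 (0.64 ± 0.26, adjusted p = 0.488 in limma). A second ENO1 probe set pointed the other way, at 1291 and 984 against 1583 and 1645.5 (−0.52 ± 0.28). ENO1 therefore had no direction common to its probe sets, and the dim ENO2, the neuronal enolase, was not tested. PKM, pyruvate kinase, overlapped between layers because the global arrays stood far apart, at 1561 and 4135 against 3074 and 3122 in the orbital layer (0.29 ± 0.43).

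At the end of the pathway, the LDHA groups did not overlap and the LDHB groups did. LDHA encodes the muscle subunit of lactate dehydrogenase, and it was at 20168 and 24755 units in the orbital layer and at 37133 and 51339 in the global layer, a 1.95-fold lower orbital signal (log2 difference −0.97 ± 0.24, adjusted p = 0.243 in limma). The whole muscle arrays, at 17712 to 24616, lay near the orbital arrays and below both global arrays. Whole muscle RNA did not pass through the T7 amplification that preceded the standard protocol for the layers, so that this position does not show which layer changed. Like FBP2, LDHA passed only without global layer replicate 1, with a difference of −1.20 and an adjusted p of 0.0499. LDHB encodes the heart subunit and overlapped between layers, at 58079 and 49821 against 65003 and 42949 (0.03 ± 0.24), and its second probe set differed by −0.11 ± 0.31. The glycerol phosphate dehydrogenases, which carry electrons from glycolysis to the mitochondrion, were mostly dim. GPD1, the cytosolic enzyme, was not tested, and GPD2, the mitochondrial enzyme, was tested on U133B alone, at 2026 and 1501 against 3215 and 5506 (−1.27 ± 0.37, adjusted p = 0.459).

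**Figure D2:**
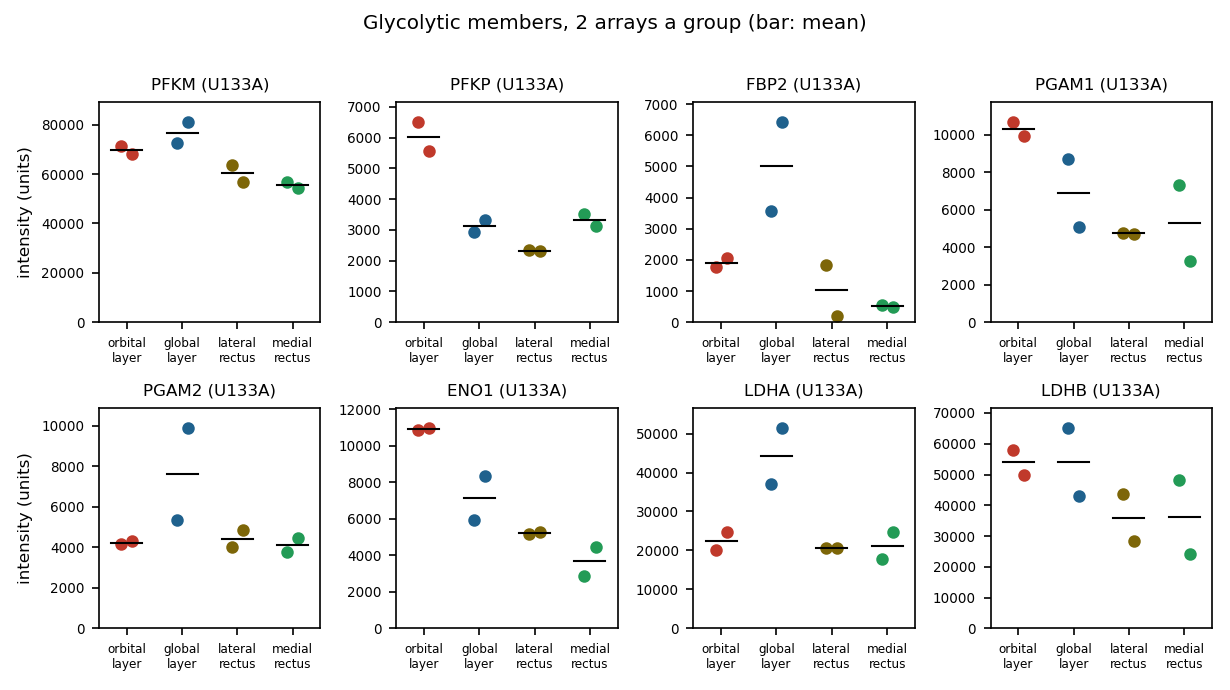
Intensity of 8 genes of glycolysis on the 8 U133A arrays, with 1 point per array, 2 per group, and a bar at the group mean. LDHA, FBP2 and PGAM2 are highest on the global layer arrays, PFKP, PGAM1 and ENO1 on the orbital layer arrays, and LDHB and PFKM overlap or nearly meet between the layers.

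Genes that feed glucose into glycogen were moderately lower in the orbital layer. PGM1, which links glucose phosphate to glycogen, was at 51499 and 55899 units in the orbital layer and at 62763 and 86094 in the global layer (log2 difference −0.45 ± 0.21). UGP2, which makes the activated UDP-glucose, was at 76445 and 70012 against 96923 and 99156 (−0.42 ± 0.17), a gap wider than the spread within either layer. On U133B the UGP2 groups overlapped, with a difference of −0.49 ± 0.32. GYG1, the glycogenin that primes the particle, was lower on both tested probe sets, by −0.67 ± 0.28 and −0.65 ± 0.25, and its brightest stood at 7047 and 4798 against 10141 and 8398.

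Synthase and branching enzyme did not share that direction. GYS1, the muscle glycogen synthase, overlapped between layers, at 4250.3 and 3206 units against 2468 and 3273 (log2 difference 0.38 ± 0.28). GBE1, the branching enzyme, had the tested difference farthest above 0, at 4769.6 and 7632 against 1816 and 4139.9 (1.14 ± 0.42, adjusted p = 0.446 in limma). The lower orbital array of GBE1 was close to the higher global array, so that the groups were only just apart.

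Among the genes of glycogen breakdown, PYGM and the alpha and beta subunits of phosphorylase kinase had lower orbital signal. PYGM, the muscle phosphorylase whose loss causes McArdle disease, was at 24889 and 22004 units in the orbital layer and at 35591 and 47034 in the global layer, 1.75-fold lower (log2 difference −0.81 ± 0.22, adjusted p = 0.311 in limma). All 4 whole muscle arrays of PYGM, at 48565 to 57102, lay above both layers. PYGL, the liver phosphorylase, overlapped between layers (0.63 ± 0.39). PYGB, the brain phosphorylase, was at most 179.9 units on the layer arrays of U133A and was tested on U133B alone, where it overlapped (0.10 ± 0.37).

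Phosphorylase kinase is built from alpha, beta, gamma and calmodulin subunits, and its alpha and beta genes were lower in the orbital layer on both array types. PHKA1, the muscle alpha subunit, was at 6770.0 and 6057 units in the orbital layer and at 11428 and 12909 in the global layer of U133A (log2 difference −0.92 ± 0.23, adjusted p = 0.254 in limma). On U133B it was at 16913 and 16133 against 30533 and 43203 (−1.14 ± 0.27, adjusted p = 0.331). The orbital arrays of PHKA1 were close together and well below the global arrays in both tables, a 1.90-fold and a 2.20-fold difference. The beta subunit PHKB was at 5842 and 8487 against 9881 and 10877 on U133A (−0.56 ± 0.26), and at 652 and 742 against 1920.1 and 1817 on U133B (−1.43 ± 0.42, adjusted p = 0.481). PHKA2, the liver alpha subunit, differed by −0.35 ± 0.33 with groups that did not overlap, and its second tested probe set by −0.15 ± 0.36. The gamma subunits carry the kinase activity, and neither followed PHKA1. PHKG1, the muscle form, overlapped at 1215 and 1784 against 1266 and 2403 (−0.24 ± 0.37), and PHKG2, the liver form, was higher in the orbital layer, at 1258 and 1145 against 723 and 1032 (0.47 ± 0.32).

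PPP1R3C targets the phosphatase that reverses phosphorylase kinase to the glycogen particle. Its U133A probe set overlapped between layers, at 24719 and 26138 units against 16518 and 25946 (log2 difference 0.30 ± 0.26). Its dimmer U133B probe set was lower in the orbital layer without overlap, at 1827 and 576 against 2692 and 2598 (−1.37 ± 0.53, adjusted p = 0.627 in limma). The array types thus gave opposite signs for this gene.

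**Figure D3:**
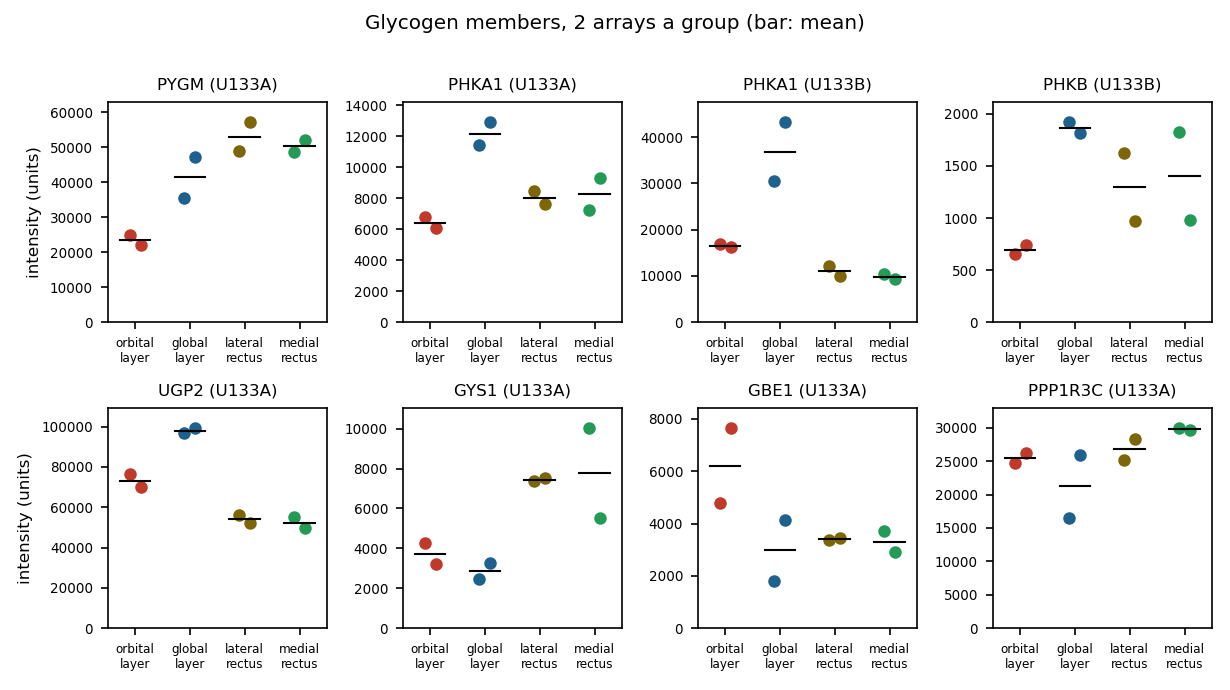
Intensity of 7 genes of glycogen metabolism on the arrays of the type named in each panel (PHKA1 on both), with 1 point per array, 2 per group, and a bar at the group mean. PYGM, PHKA1 and PHKB are lower on both orbital layer arrays than on both global layer arrays, GBE1 is higher, and GYS1 and PPP1R3C overlap between the layers.

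Among other genes of the same pathways no difference passed either. Of 56 further genes of glycolysis, glycogen, lactate transport and their AMP kinase and phosphatase regulators, 38 were on U133A and 18 were tested there, 12 lower and 6 higher in the orbital layer, and none passed. The median log2 difference was −0.17, and groups did not overlap for 8 lower and 3 higher genes (23.4% and 18.5% of all probe sets). On U133B 15 were tested, 7 lower and 8 higher, with a median of 0.08, and again none passed. Groups did not overlap there for 6 lower and 4 higher genes (17.8% and 20.8% of all probe sets). PPP1R3B, another subunit that brings phosphatase to glycogen, came closest on U133B, at 6011 and 8177 units against 26018 and 31683 (log2 difference −2.03 ± 0.27, adjusted p = 0.0666 in limma). PPP1CB, a catalytic subunit of that phosphatase, was lower on both array types without overlap, by −0.92 ± 0.24 and −1.33 ± 0.41, whereas its sister PPP1CA was higher on U133A (0.94 ± 0.34). PGM2L1, which makes glucose bisphosphate, was lower by −1.17 ± 0.34 on U133B, and PFKFB4 by −0.81 ± 0.30. TIGAR, a phosphatase acting on the same regulator as the PFKFB enzymes, was lower by −0.74 ± 0.31 on U133A.

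Markers of fibre types and other cells also differed between these layer arrays. Of 12 tested fast fibre genes on U133A, 10 were lower in the orbital layer, and ACTN3, the actinin of fast fibres, passed at 338 and 679 units against 11435 and 36323. The summed intensity of the fast list was 795070.0 to 859270.0 for the orbital layer, against 892940.0 to 1065600.0 for the global layer. All 11 tested slow fibre genes were higher, 2 of them passed, and their sums were 369550.0 to 411920.0 against 157560.0 to 282800.0. Fibroblast and matrix genes were higher in 9 of 10, none passed, and their sums were 273980.0 to 307920.0 against 222160.0 to 227860.0. Smooth muscle and pericyte genes were higher in 6 of 7, at sums of 46171 to 48468 against 39451 to 40408, and endothelial genes lower in 6 of 7, at 17435 to 18315 against 20530.0 to 25275. Of the listed muscle genes 3 were higher and 7 lower, at 617370.0 to 684300.0 against 679570.0 to 734980.0. Few genes of macrophages (5), adipocytes (3), red cells (2) and Schwann cells (2) were bright enough to test, and none passed. No gene of these lists was at the floor on all arrays. For ACTB, the signal near the 3′ end over that near the 5′ end, a measure of how far copies reach toward the start of the transcript, stood on U133A at 5.30 and 5.87 for the orbital layer, against 2.84 and 2.88, while that of GAPDH overlapped. The part of fibre types, matrix cells and RNA quality in the differences above was not tested.

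Ratios between isozymes within an array do not depend on the array's scaling factor, and they set related enzymes against each other. Most of the 14 pairs were a muscle form over another form, while PFKFB3 to PFKFB2 and the cytosolic GPD1 to the mitochondrial GPD2 were not of that kind. On U133A the ratio of the first to the second was lower on both orbital arrays than on both global arrays for 11 pairs, higher for none, and overlapped for 3. Under quantile normalization it was lower for 12 and higher for 1, PFKM against PFKL. PYGM and PFKM each enter 2 pairs, the values are those given above in another form, and 2 arrays against 2 cannot give an exact two-sided p below 0.333, so that no test was made. How often the groups separate for other pairs of probe sets was not computed, here or in the comparisons below. The counts of ratios therefore only describe the 14 pairs. The absolute ratio compares different probe sets and was not read, only its difference between arrays.

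LDHA against LDHB had log2 ratios of −1.53 and −1.01 for the orbital layer, against −0.81 and 0.26 for the global layer, a difference of −0.99. The other large differences were −1.44 for PYGM against PYGL, −1.41 for PGAM2 against PGAM1, −1.22 for FBP2 against FBP1 and −1.08 for PFKM against PFKP. PFKM against PFKP was the tightest of these, with 3.46 and 3.62 for the orbital layer, against 4.63 and 4.61, while PFKP alone differed by 0.95 and PFKM alone by −0.14. Smaller differences were found for PHKG1 against PHKG2 (−0.72), ENO3 against ENO1 (−0.65), PHKA1 against PHKA2 (−0.57) and ALDOA against ALDOC (−0.41). On U133B, ENO3 against ENO1 had the opposite sign and overlapped (0.50), with 4 arrays at the floor. FBP1, which enters the FBP2 ratio, was too dim to test between the layers. PYGM against PYGB (−0.95) and GPD1 against GPD2 (−1.70) were lower too, but some of their arrays were at the floor. PFKM against PFKL overlapped (0.39), as did HK2 against HK1 (−0.89) and PFKFB3 against PFKFB2 (−1.07).

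**Figure D4:**
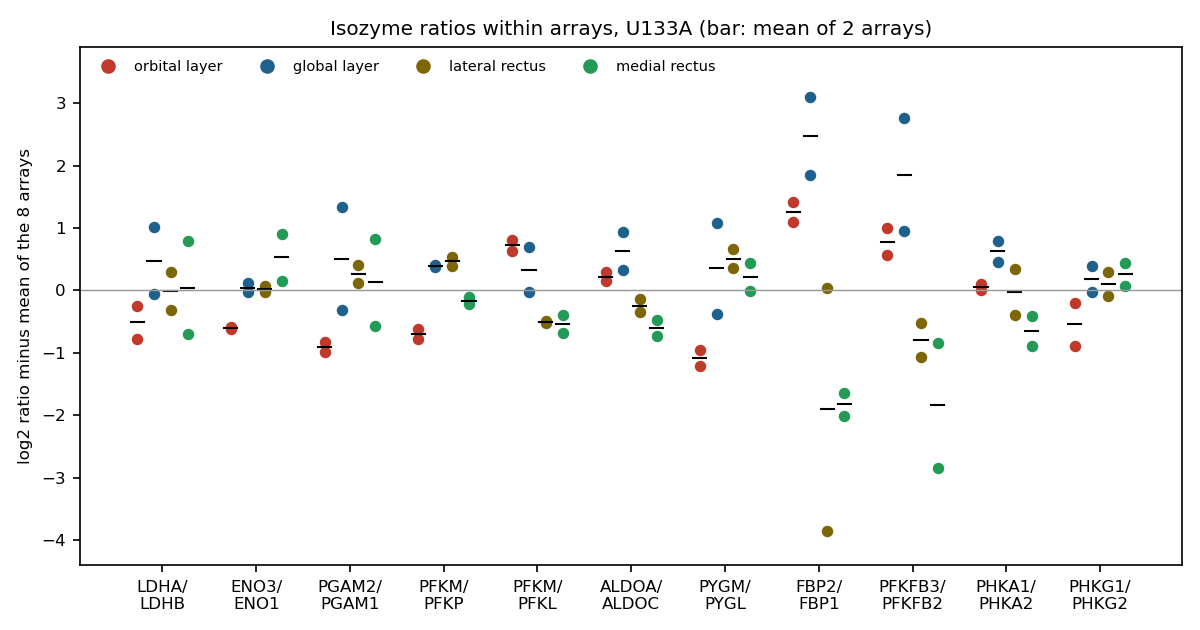
Log2 ratio of the intensities of 2 isozymes on each of the 8 U133A arrays, with the mean of the 8 arrays taken as 0, for the 11 pairs with no array at the floor (1 point per array, bar at the mean of 2 arrays). Both orbital layer points lie below both global layer points for 9 of these pairs, and overlap them for PFKM against PFKL and PFKFB3 against PFKFB2.

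The medial and lateral rectus, which turn the eye toward the nose and toward the temple, gave no difference in these genes that passed. On U133A, 32 genes were tested, 22 lower (68.8%; 49.5% of all probe sets) and 10 higher in the medial rectus. None passed, as among all probe sets (0.0%). No member reached an unadjusted p under 0.05 in limma, against 2.8% of all probe sets, and every adjusted p was 0.999. Groups did not overlap for 3 higher genes (9.38%; 15.0% of all probe sets) and 3 lower genes (9.38%; 13.6%), and the median log2 difference was −0.05. On U133B, 11 genes were tested, 7 higher (63.6%; 48.0% of all probe sets) and 4 lower. None passed (0.0% of all probe sets), and 1 had an unadjusted p under 0.05 in limma, against 3.43%. There, 1 gene was higher and 1 lower without overlap (9.09% each; 15.2% and 16.8% of all probe sets).

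Of the members apart between these muscles, ALDOA and ENO3 on U133B differed more than the rest. PFKP was higher in the medial rectus, at 3519.8 and 3130.2 units against 2347 and 2302 in the lateral rectus (log2 difference 0.51 ± 0.26). PHKA2 was higher as well, at 1462 and 1326 against 723 and 1076 (0.66 ± 0.41), and PPP1R3C by 0.16 ± 0.18. ENO1 was lower on its brightest probe set, at 2871 and 4454 against 5189.8 and 5286 (−0.55 ± 0.27), while its second probe set differed by 0.11 ± 0.37. ALDOA was lower by −0.27 ± 0.19 on U133A, and on U133B at 1979 and 1323 against 5961 and 3844 (−1.56 ± 0.42, adjusted p = 0.991 in limma). PHKG2 was lower by −0.17 ± 0.29, and ENO3 on U133B was higher, at 2626 and 2429 against 1869.6 and 818 (1.03 ± 0.55). Other muscle isozymes overlapped, with LDHA differing by 0.02 ± 0.22, PYGM by −0.07 ± 0.19, PFKM by −0.11 ± 0.18 and ENO3 on U133A by −0.04 ± 0.18. For LDHA, the lateral rectus arrays stood at 20731 and 20555 units and the medial rectus arrays at 17712 and 24616.

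Of the other pathway genes, 26 on U133A and 15 on U133B were tested between these muscles, and none passed. On U133A 13 were higher and 13 lower, with groups apart for 2 and 4 of them (15.0% and 13.6% of all probe sets). On U133B 8 were higher and 7 lower, with groups apart for 3 and 1 (15.2% and 16.8% of all probe sets). Of the 14 ratios, 4 were lower and 1 higher in the medial rectus without overlap. The lower ones were PFKM to PFKP (−0.63), PHKA1 to PHKA2 (−0.63), ALDOA to ALDOC (−0.36) and GPD1 to GPD2 (−1.59, some arrays at the floor), and the higher one was ENO3 to ENO1 (0.51).

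The layers and whole muscle differed in many members and in both directions. Tissue, dissection and amplification changed together between these groups and cannot be told apart. On U133A 34 genes were tested, and 12 rose and 11 fell in the layers, or 67.6%, against 48.7% of all probe sets. By direction, 18.6% of all probe sets rose and 30.1% fell. On U133B 11 were tested, and 5 rose and 2 fell (63.6%, against 42.8% of all probe sets, of which 20.5% rose and 22.3% fell). An unadjusted p under 0.05 in limma was reached by 26 of the 34 and 7 of the 11, against 55.3% and 52.1% of all probe sets. Layer arrays lay above whole muscle without overlap for 7 genes and below it for 9 on U133A (16.6% and 27.3% of all probe sets), and for 3 and 1 on U133B (19.1% and 21.6%). The median log2 difference of the members was 0.20 on U133A and 0.68 on U133B, against −0.18 and −0.21 over all probe sets. It became −0.0024 and 0.26 under quantile normalization, and −0.027 on U133A with the mean of a gene's probe sets, so that the U133A median had no settled sign. Quantile normalization moved the median of all probe sets to 0.00 and −0.04, and the share of higher genes among all calls from 38.3% to 50.4% on U133A and from 47.8% to 55.7% on U133B.

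Under quantile normalization, 4 of 34 genes of U133A rose and 8 fell, beside 2073 and 2043 of all 10515 probe sets. On U133B 3 of 11 rose and 2 fell, beside 1839 and 1464 of all 10530. With this setting the members of U133A thus did not pass more often than all probe sets, and the 11 genes of U133B are too few to tell. Relative to the median of all probe sets, 20 of the 34 genes of U133A were higher and 14 lower. In 7 of the 23 calls on U133A (ALDOA, HK1, LDHB, PFKFB2, PFKL, PFKM and PGAM1) and in 1 of the 7 on U133B (GPD2), leaving out 1 array ended the call. Between 3 and 6 of the 8 arrays had this effect, each alone, so that no single array decided them. The calls that held under quantile normalization and without each array in turn were 10 on U133A and 4 on U133B.

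Of these, 4 genes of U133A were higher in the layers. FBP2 was 5.38-fold higher, at 1759.7, 2059.6, 3585 and 6421 units in the layers and 1844, 194, 566 and 491 in whole muscle (log2 difference 2.43 ± 0.59, adjusted p = 0.00536 in limma). Lateral rectus replicate 1 reached the level of the orbital arrays, so that the groups overlapped, and the orbital layer alone did not pass against whole muscle (1.76, adjusted p = 0.0708). PFKFB3 was 2.97-fold higher and apart, at 1445 to 2564 against 332 to 1007 (1.57 ± 0.34, adjusted p = 0.00275 in limma). FBP2 and PFKFB3 were too dim to test between the rectus muscles, and were kept here through the layer arrays. ENO1 was higher by 1.02 ± 0.25, and its 4 layer arrays, at 5914 to 10958, all lay above whole muscle, at 2871 to 5286, although the global layer alone did not pass (0.70, adjusted p = 0.0741). UGP2 was higher by 0.67 ± 0.14, at 70012 to 99156 against 49871 to 55961, and by 1.11 ± 0.23 on U133B, a call that ended under quantile normalization (adjusted p = 0.0741).

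The 6 genes of U133A that were lower under both conditions had layer arrays entirely below whole muscle. GYS1, the synthase, was at 2468 to 4250.3 units in the layers and 5516 to 10010.4 in whole muscle (log2 difference −1.20 ± 0.22). PYGM was at 22004 to 47034 against 48565 to 57102 (−0.74 ± 0.21), and it did not pass with the global layer alone (−0.33, adjusted p = 0.145 in limma) or with no filter on dim probe sets (adjusted p = 0.0591). GYG1 was at 4798 to 10141 against 11652 to 15339 (−0.86 ± 0.22), and PHKG1 at 1215 to 2403 against 3204 to 4893 (−1.30 ± 0.25). The second tested GYG1 probe set had the opposite sign (0.48 ± 0.24) and did not pass, and the brightest GYG1 probe set missed the threshold with the global layer alone (−0.53, adjusted p = 0.0516). The other 2 were PKM, at 1561 to 4135 against 6151 to 8295 (−1.42 ± 0.26), and ALDOC, at 1048 to 1308 against 2542 to 3055 (−1.26 ± 0.17, adjusted p = 0.000222).

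On U133B, the calls that held were higher PFKFB2, at 3904 to 5926 units in the layers against 1349 to 2754 in whole muscle (log2 difference 1.34 ± 0.27), and higher ALDOA (1.73 ± 0.45). PYGB was lower, at 1668 to 2668 against 3170 to 4661 (−0.91 ± 0.26), and so was ENO3 (−2.16 ± 0.56). ENO3 stood at 155 to 833 units in the layers, with 1 array at the floor, against 818 to 2626 in whole muscle. It was too dim to test between the layers and was kept here through whole muscle, so that the size of its fall is uncertain. With the orbital layer alone, ALDOA (1.16, adjusted p = 0.117 in limma) and PYGB (−0.86, adjusted p = 0.0642) did not pass, nor did ALDOA with no filter (adjusted p = 0.0524). ALDOA and ENO3 carried the opposite sign on U133A, where ALDOA fell by 0.41 ± 0.15 and ENO3 rose by 0.46 ± 0.12. PFKFB2 also differed in sign, since it fell by 1.07 ± 0.36 on U133A. The remaining calls on U133A ended under quantile normalization, without an array or in both cases. They were higher PFKM (0.33 ± 0.12), PGK1 (0.62 ± 0.16), PGAM1 (0.78 ± 0.28), ENO3, LDHB (0.62 ± 0.22), PGM1 (0.57 ± 0.17), PHKB (0.76 ± 0.22) and HK1 (0.49 ± 0.18), whose sign turned to −0.09 under quantile normalization. Lower were PFKL (−0.72 ± 0.24), PFKFB2, FBP1 (−1.30 ± 0.28), ALDOA and PHKG2 (−0.94 ± 0.22), and on U133B PHKA1 (1.24 ± 0.29) and GPD2 (1.06 ± 0.38) were higher.

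Probe sets of the same gene often disagreed in this comparison. Of 9 members with several tested probe sets on U133A, 5 had both signs (53.0% of all such genes), and PGK1, ENO1 and PHKB had probe sets that passed in both directions (14.1% of all such genes). For ENO1 the probe sets differed by 1.02 ± 0.25 and −1.10 ± 0.26. For PGK1 they ranged from −1.46 ± 0.31 to 0.72 ± 0.17, and for PHKB from −1.09 ± 0.26 to 0.76 ± 0.22. Between the layers, 3 of 8 such genes had both signs (44.0% of all such genes) and none passed in both directions. The ACTB ratio of 3′ to 5′ signal on U133A was 4.22 ± 1.59 (SD, n = 4) for layers against 0.870 ± 0.136 for whole muscle, and on U133B 4.22 ± 0.822 against 0.754 ± 0.188. Its part in these differences was not tested.

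**Figure D5:**
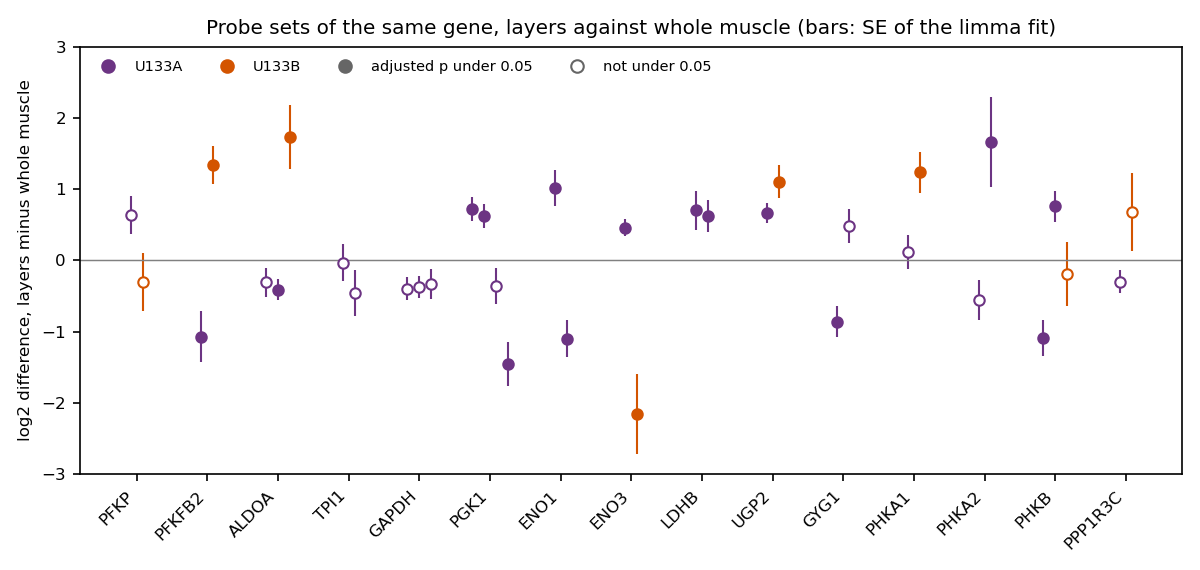
Log2 difference between layers and whole muscle for every tested probe set of the 15 genes with more than 1 tested probe set over both array types (purple U133A, orange U133B, bars for the SE of the limma fit, filled where the adjusted p was under 0.05). Filled points of 1 gene lie on both sides of 0 for PFKFB2, ALDOA, PGK1, ENO1, ENO3 and PHKB.

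Of the isozyme ratios, 4 pairs separated the 4 layer arrays from the 4 whole muscle arrays completely. These were PFKM against PFKL (log2 difference 1.05), ALDOA against ALDOC (0.85), FBP2 against FBP1 (3.73) and PFKFB3 against PFKFB2 (2.64), all higher in the layers. The exact permutation test gave a two-sided p of 0.0286 for each, the smallest it can give with 4 arrays against 4, and 0.1 after adjustment over the 14 pairs. Under quantile normalization 3 of them stayed separated, and PFKM against PFKL overlapped (0.30, exact permutation p = 0.0857). LDHA against LDHB differed by −0.03 and PGAM2 against PGAM1 by −0.40, within the spread of the arrays.

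Other pathway genes passed about as often as probe sets in general. Of 21 tested on U133A, 6 rose and 6 fell, and of 15 on U133B, 6 rose and 2 fell, beside 48.7% and 42.8% of all probe sets. The AMP kinase subunits PRKAB1 (−2.04 ± 0.27) and PRKAG2 (−1.72 ± 0.23) fell on U133A, where GSK3B, the kinase that inhibits glycogen synthase, rose (0.98 ± 0.18), as it did on U133B (1.32 ± 0.18). PGM5, a muscle relative of PGM1 without its enzyme activity, rose by 1.79 ± 0.22 on U133B. PRKAB2 fell on U133A (−1.18 ± 0.22) and rose on U133B (1.54 ± 0.24), and PPP1CB rose on U133A (0.88 ± 0.28) and fell on U133B (−1.07 ± 0.38), so that these genes too had no direction common to both array types. The adjusted p of these calls in limma lay between 9.25e-05 for PGM5 and 0.0375 for PPP1CB. For the fibre lists on U133A, the shares that passed were below that of all probe sets. There, 11 of 11 slow genes were higher in the layers and 4 passed, and 7 of 12 fast genes were lower and 3 passed. Fast sums were 795070.0 to 1065600.0 in the layers and 1064400.0 to 1229100.0 in whole muscle. Smooth muscle and pericyte sums on U133A were 39451 to 48468 in the layers and 25672 to 38327 in whole muscle, with 4 genes higher and 3 lower. On U133B the sums of this list ran the other way, at 5285.6 to 6477.3 in the layers and 6953.1 to 11169 in whole muscle. The part of these cells in the differences was not tested.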

How the data were processed

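Per the labels, monkey RNA was run on human U133A and U133B arrays, after T7 amplification for the layers and by the standard Affymetrix protocol for whole muscle. The values the authors deposited are single-colour intensities, 1 per probe set and array. Their 2% trimmed mean was 1500.34 to 1500.61 on U133A and 1500.22 to 1500.67 on U133B, from which a common scaling was inferred. The summary software is not given in the sources used here.

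From these, the arrays of a table were brought to 1 shared 2% trimmed mean, values were raised to the table's 20th percentile (146 units on U133A, 218 on U133B) and log2 was taken. A probe set was tested where its mean log2 over the arrays compared reached that of the table's median (654 and 803 units), with 68 control probe sets per table left out. The 2 tables were fitted separately with limma 3.58.1 in R 4.3.3 (lmFit, eBayes with an intensity trend), two-sided, with Benjamini-Hochberg adjustment over all probe sets tested, and isozyme ratios and figures were made with Python 3.11.15. The fits were tested on simulated data. Groups "did not overlap" where every array of one lay beyond every array of the other. Between the layers, array values are given for up to 8 members per direction whose groups did not overlap, and for some others. Between layers and whole muscle, array values or ranges are given for the calls that held, and most remaining calls by log2 difference and SE alone. Between the rectus muscles, some members are given by log2 difference and SE alone.

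Replicate numbers come from the titles where these give one, and from accession order for the other rectus arrays. The genes, lists and tests were chosen with earlier results of these data known. Alternatives were quantile normalization, other floors and filters, no intensity trend, all groups in 1 fit, the mean of a gene's probe sets, single layers against whole muscle, the replicate number as a block, and each array left out in turn. All sample columns of both tables were used.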

Additional observations from a re-analysis of the deposited data

Results flagged for a closer look

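Each group of 4 layer or 4 whole muscle arrays was checked for a single array far from the rest, over 60 groups for the 30 values that passed between layers and whole muscle, and chance flags about 1 in 20 such groups. It found 1, PGM1 on U133A, where lateral rectus replicate 1 stood at 51150 units and the other 3 whole muscle arrays between 39200 and 40280. The gap was 0.897 of the group's range, above Dixon's critical value for 4 arrays. The PGM1 call did not end when any single array was left out.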

How the results depend on the processing

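Between the layers, limma called 39 probe sets of U133A over all genes, against 0 with no filter, 12 without the intensity trend, 21 under quantile normalization, 92 with the replicate block and 68 to 144 without 1 array. On U133B it called 2, against 10 with all 4 groups in 1 fit, 23 with the filter at the 75th percentile, 19 with the floor at the 40th, 0 with the floor at the 5th, no filter, no trend or quantile normalization, 26 with the replicate block and 0 to 28 without 1 array. No member passed under any of these except FBP2 and LDHA without global layer replicate 1 (0 to 2 members). The replicate block called 0 members. Only 2 numbers are shared, and deviations of same-numbered arrays correlated at 0.26 (U133A) and 0.13 (U133B). The members' median was −0.19 with no filter and −0.22 under quantile normalization on U133A (−0.43 to −0.19 without 1 array), and −0.29 and −0.62 on U133B (−1.06 to −0.53). On U133B, 3 genes were lower without overlap with the filter at the 75th percentile, and 5 to 8 without 1 array. Between the rectus muscles, the filter at the 75th percentile called 7 probe sets over all genes of U133A and leaving out 1 array 0 to 9, and the members' median ranged from −0.13 to 0.020. Between layers and whole muscle on U133A, the median was −0.027 with the mean of probe sets, 0.36 with the filter at the 75th percentile, 0.10 with no filter, 0.049 with the orbital layer alone and −0.0024 under quantile normalization. Calls over all genes numbered 2513 with the stricter filter. Lower members numbered 7 with that filter or the global layer alone, and higher members 7 with no filter and 4 under quantile normalization, where HK1 turned to −0.091. On U133B, calls over all genes numbered 2799 with the stricter filter and 2952 with the orbital layer alone. There 1 member was lower with the stricter filter, the floor at the 5th percentile or the orbital layer alone, and 3 were higher with no filter, the orbital layer alone or quantile normalization. The U133B median was 1.24 with the stricter filter, −0.12 with no filter, 1.35 with the global layer alone, 0.26 under quantile normalization and 0.44 to 1.09 without 1 array, with 1 to 2 lower calls. Under quantile normalization, isozyme differences between layers became −0.41 (ENO3 to ENO1), −0.86 (PFKM to PFKP) and −1.27 (PYGM to PYGB). That of the rectus muscles became 0.12 (PFKM to PFKL). Those of layers against whole muscle became 0.71 (HK2 to HK1), 0.30 (PFKM to PFKL), −0.29 (PHKA1 to PHKA2), −0.87 (PYGM to PYGB) and −1.53 (PYGM to PYGL). With the floor at the 40th percentile, GPD1 to GPD2 became −0.54 between rectus muscles and PYGM to PYGB −0.74 between layers and whole muscle. The cause of these changes was not tested. Over single members, 410 values kept direction and side of the threshold between layers and whole muscle, 87 lost the threshold and 1 reversed, while 198 kept both between the layers, 2 newly passed, and all 86 kept both between the rectus muscles. Dim probe sets at the floor have no order, which limits HK2, GPD1 and PYGB on U133A.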
